A study of Mus musculus with 10 samples.

Results

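The T cell receptor beta chains described here used the variable genes TRBV14, TRBV17, TRBV20, TRBV23, TRBV24 and TRBV30. These 6 genes were grouped for description and are not a natural family of the beta locus. Members were the clonotypes that the tables list under one of these 6 names and whose complementarity determining region 3 (CDR3) ends like a beta chain joining (J) gene. A clonotype was a distinct combination of V gene, J gene and CDR3 nucleotides within 1 sample. The rule gave 20669 member clonotypes, of 193000 beta chain (TRB) clonotypes and 387286 deposited entries. They held 30765 of 266347 TRB counts.

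Repertoires came from splenic regulatory T (Treg) cells, which restrain immune responses and are defined by the transcription factor Foxp3. The 5 CNS4KO samples came from mice lacking the Foxp3 enhancer CNS4, and the 5 CNS4Flox samples from mice with the floxed enhancer. Neither the animals' age and sex nor the Cre line behind the deletion is given in the sources used here, and no sample was treated. Only TCR transcripts were amplified, so Foxp3 and other Treg markers could not be checked against the cell type label.

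A TCR beta chain is assembled in the thymus by joining 1 V, 1 D and 1 J gene, with bases trimmed from the gene ends and random bases added between them. The join encodes the CDR3, the loop that mostly contacts the peptide held by the MHC molecule, while the V gene alone encodes the loops that mostly contact the MHC molecule. The J genes form a TRBJ1 cluster, which follows the D gene TRBD1, and a TRBJ2 cluster, which follows TRBD2. A clone's share of the counts grows as its cells divide, whereas the number of distinct clonotypes reflects how many different joins are present.

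The end of each V gene sets how every CDR3 of that gene begins. The sequences are the most frequent base at each position that the deposited V match covers, 5′ to 3′, from the conserved cysteine codon onwards. Capitals mark bases that differ from TRBV14 at the same position, and bases past the end of TRBV14 were not compared.
TRBV14: tgtgccagcagtttct
TRBV17: tgtgcTagcagtAGAGa
TRBV20: tgtgGTGCTagGGA
TRBV23: tgCTccagcagtCAAtc
TRBV24: tgtgccagcagtCtGta
TRBV30: tgtAGTTCTagAGA
These were read from the clonotypes themselves, since no germline sequence was used, and each base was carried by at least 90.7% of the clonotypes whose V match reached it. TRBV14 and TRBV24 shared their first 12 bases and differed at 2 of 16. TRBV20 and TRBV30 both ended after 14 bases, against 16 or 17 for the other members, and differed from each other at 3 positions. TRBV30 stood farthest from TRBV14, with 9 of 14 bases different.

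At the protein level 3 of the 6 genes shared a CDR3 start. CASS, the commonest start of beta chains in general, opened 84.4% of TRBV14, 89.4% of TRBV17 and 88.7% of TRBV24 clonotypes over the 10 samples. TRBV23 clonotypes opened with CSSS in 90.2%. TRBV20 and TRBV30, with the shorter ends, had a less uniform start. CGAR opened 67.7% of TRBV20 clonotypes and CSSR opened 62.3% of TRBV30 clonotypes. The first 2 residues alone were the usual ones of the gene in 99.2% to 99.9% of clonotypes.

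All 6 genes lie on mouse chromosome 6 in RefSeq's annotation of mm10 (GRCm38) and are annotated as V segments. In locus order, TRBV14 spans 41135167 to 41135616, next to Trbv13-3 and Trbv15. TRBV17 spans 41163092 to 41163556, between Trbv16 and Trbv19. TRBV20 (41188273 to 41188977), TRBV23 (41216073 to 41216526) and TRBV24 (41218091 to 41218557) follow each other with none of the other measured V genes between them. TRBV30 spans 41281376 to 41281990, between Trbv29 and Trbv31, and of these 6 genes lies nearest the J genes.

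The samples held 61793 to 95853 deposited counts, of which 19199 to 34833 were TRB, and 1849 to 4563 of those were member counts. Precision from counting was about the same in all samples: the 95% Wilson interval of the members' share ran from 9.22% to 10.1% in the shallowest, CNS4KO replicate 2, and from 12.7% to 13.5% in the deepest, CNS4KO replicate 4. The intervals cover counting error only and take every count as independent, although counts fall together in clonotypes. They leave out the spread between samples, and it is not stated whether counts are reads or molecules. CNS4KO replicate 5 and CNS4Flox replicate 3 shared 105 member clonotypes with identical nucleotides, against 2 to 24 in the other 44 pairs of samples. The tests between groups were repeated without both. Then 3 of 6 members passed for counts per clonotype, and 0 for use by counts, use by distinct clonotypes, J pairing, CDR3 length, V bases and inserted bases. Whether each replicate was its own mouse is not labelled, so p-values measure only the spread between these samples.

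The 6 genes together held 11.3%, 9.63%, 11.9%, 13.1% and 10.3% of TRB counts in CNS4KO replicates 1 to 5, against 10.1%, 12.1%, 11.7%, 12.5% and 11.9% in CNS4Flox replicates 1 to 5. The groups overlapped, with means of 11.2% ± 1.35 in CNS4KO and 11.7% ± 0.919 in CNS4Flox (SD, 5 samples each). Of distinct TRB clonotypes they made up 10.1% ± 1.06 in CNS4KO and 11.2% ± 0.756 in CNS4Flox (SD, 5 samples each).

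TRBV20 was the most used of the 6 genes and TRBV24 the least used of all 22 TRBV genes measured. Over the 10 samples TRBV20 averaged 3.35% of distinct TRB clonotypes, followed by TRBV23 with 1.95%, TRBV17 with 1.91%, TRBV14 with 1.79%, TRBV30 with 1.077% and TRBV24 with 0.546%. TRBV20 exceeded TRBV23, TRBV14 exceeded TRBV30 and TRBV30 exceeded TRBV24 in 10 of 10 samples. TRBV23, TRBV17 and TRBV14 had no settled order, since TRBV23 was above TRBV17, and TRBV17 above TRBV14, in only 5 of 10 samples. Among the 22 genes, TRBV24, TRBV30, TRBV14, TRBV17 and TRBV23 were the 5 least used by both measures.

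**Figure D1:**
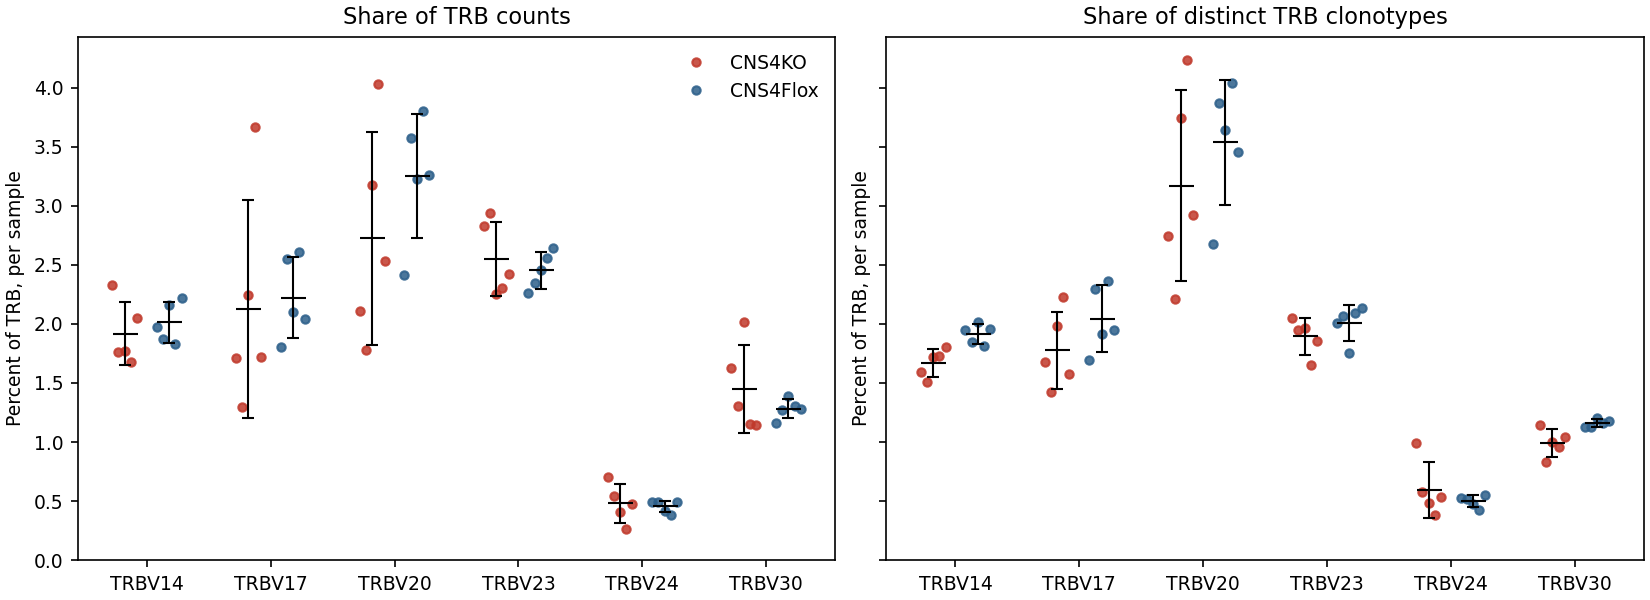
Percent of TRB counts (left) and of distinct TRB clonotypes (right) under each of the 6 TRBV genes. Each point is a sample, with 5 CNS4KO (red) left of 5 CNS4Flox (blue), and black marks give the group mean and SD. TRBV14 is the gene whose groups do not overlap by distinct clonotypes, and TRBV17 and TRBV20 vary most among CNS4KO samples.

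Counted by abundance, no member passed the threshold between CNS4KO and CNS4Flox. TRBV20 held 2.11%, 1.78%, 3.18%, 4.03% and 2.53% of TRB counts in CNS4KO replicates 1 to 5, against 2.42%, 3.57%, 3.22%, 3.80% and 3.26% in CNS4Flox replicates 1 to 5. CNS4KO samples thus included both the lowest and the highest value. The log2 fold change was -0.25 (SE 0.18; adjusted p = 0.746 in edgeR's quasi-likelihood test). Leaving out CNS4KO replicate 4, the sample with the most TRBV20, gave -0.44 with an adjusted p of 0.0179 in edgeR, so this sample decided the call.

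TRBV30 averaged 1.45% ± 0.372 of counts in CNS4KO and 1.28% ± 0.0819 in CNS4Flox (SD, 5 samples each), with CNS4KO replicate 3 highest at 2.02%. TRBV17 averaged 2.13% ± 0.924 in CNS4KO and 2.22% ± 0.346 in CNS4Flox, with CNS4KO replicate 4 at 3.67%. TRBV14 averaged 1.92% ± 0.269 in CNS4KO and 2.01% ± 0.171 in CNS4Flox. TRBV23 averaged 2.55% ± 0.314 in CNS4KO and 2.45% ± 0.156 in CNS4Flox, and TRBV24 averaged 0.480% ± 0.165 in CNS4KO and 0.455% ± 0.0504 in CNS4Flox. The spread was wider in CNS4KO for each of the 6 genes, a difference that was not tested. The log2 fold changes of these 5 genes ran from -0.07 for TRBV14 to 0.17 for TRBV30. Single CNS4KO samples moved these values: TRBV30 was at 0.03 without replicate 3 and TRBV17 at -0.35 without replicate 4. In edgeR 0 of 6 members passed an adjusted p of 0.05 over the 22 genes, beside 0% of all genes tested, and 0 members passed in DESeq2. At an unadjusted p under 0.05 in edgeR there were 0 members and 1 of the 22 genes. CNS4KO and CNS4Flox values overlapped for all 6 members, beside 4.55% of the 22 genes without overlap.

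Counted once per clonotype, TRBV14 was lower in every CNS4KO sample than in any CNS4Flox sample. It made up 1.60%, 1.51%, 1.72%, 1.72% and 1.81% of distinct TRB clonotypes in CNS4KO replicates 1 to 5, against 1.94%, 1.85%, 2.02%, 1.81% and 1.96% in CNS4Flox replicates 1 to 5. The highest CNS4KO and the lowest CNS4Flox value nearly met, and the means were 1.67% ± 0.118 in CNS4KO and 1.92% ± 0.0857 in CNS4Flox (SD, 5 samples each). The log2 fold change of -0.19 (SE 0.07) missed the threshold in edgeR's quasi-likelihood test, with an adjusted p of 0.0947 over the 22 genes (unadjusted 0.0172). Groups did not overlap for 4 of the 22 genes, or 18.2%.

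TRBV30 made up 1.15%, 0.827%, 0.997%, 0.958% and 1.05% of distinct clonotypes in CNS4KO replicates 1 to 5, against 1.12%, 1.13%, 1.20%, 1.16% and 1.18% in CNS4Flox replicates 1 to 5. CNS4KO replicate 1 lay among the CNS4Flox values and the other 4 CNS4KO samples below them. The log2 fold change was -0.22 (SE 0.10; edgeR adjusted p = 0.174), and without CNS4KO replicate 1 it was -0.27 and passed (edgeR adjusted p = 0.0326). TRBV24 made up 0.992%, 0.581%, 0.486%, 0.381% and 0.533% in CNS4KO replicates 1 to 5, against 0.421% to 0.548% in CNS4Flox. CNS4KO replicate 1 thus had the highest TRBV24 share of the 10 samples and CNS4KO replicate 4 the lowest, and the log2 fold change was 0.24 with replicate 1 and -0.02 without it.

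By distinct clonotypes TRBV17 averaged 1.78% ± 0.325 in CNS4KO and 2.04% ± 0.281 in CNS4Flox, and TRBV20 averaged 3.17% ± 0.807 in CNS4KO and 3.54% ± 0.528 in CNS4Flox (SD, 5 samples each). TRBV23 averaged 1.89% ± 0.154 in CNS4KO and 2.01% ± 0.153 in CNS4Flox. Their log2 fold changes were -0.20 for TRBV17, -0.15 for TRBV20 and -0.09 for TRBV23, with adjusted p from 0.397 to 0.522 in edgeR. In all, 0 of 6 members passed in edgeR or in DESeq2 and 2, TRBV14 and TRBV30, were at an unadjusted p under 0.05, beside 13.6% of all 22 genes passing and 5 of them at an unadjusted p under 0.05. The median log2 fold change was -0.17 over the 6 members and -0.04 over all 22 genes.

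TRBV17 and TRBV20 varied together across the samples, whichever the group. Both were lowest in CNS4KO replicate 2, at 1.42% and 2.21% of distinct clonotypes, and both were high in CNS4KO replicate 4, at 2.23% and 4.23%, and CNS4Flox replicate 4, at 2.36% and 4.04%. Pearson's r was 0.941 and Spearman's rho 0.903 over the 10 samples, with 2-sided permutation p of 0.00014 and 0.00077. Adjusted over the 15 pairs of members these were 0.00210 and 0.0115. Without the 2 samples farthest from the TRBV17 median, CNS4KO replicate 2 and CNS4Flox replicate 4, r was 0.914, and without the pair of libraries that shared the most clonotypes it was 0.960. Of the other 14 pairs, TRBV20 and TRBV24 ran in opposite directions by rank, with a rho of -0.842 (permutation p = 0.00383, adjusted p = 0.0287), but by r the relation did not pass (r = -0.576, permutation p = 0.0566, adjusted p = 0.283). Without CNS4KO replicate 2 and CNS4Flox replicate 1, its r was -0.799. Shares of 1 sample add up to the same total, so they are not independent of each other.

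Mean counts per clonotype were higher in CNS4KO than in CNS4Flox for all 6 genes, and the difference passed for 5. Each sample was first thinned to 19199 TRB counts, the smallest TRB count of any sample. Thinning made counts equal but not cells, and the number of cells per sample is not given in the sources used here. Before thinning, CNS4KO samples averaged 18063 distinct TRB clonotypes and CNS4Flox samples 20537. Whether cell number or amplification had a part in the difference was not tested. The comparison passed for 95.5% of all 22 TRBV genes, all higher in CNS4KO, in a 2-sided exact permutation test adjusted over the genes, so the members' count is near that of the whole repertoire. The number of members passing fell when any 1 CNS4Flox sample was left out. It was 0 without CNS4Flox replicate 1, 2 or 4, 1 without CNS4Flox replicate 5 and 3 without CNS4Flox replicate 3. With any 1 CNS4KO sample left out it was 5 or 6. The means stayed higher in CNS4KO for all 6 genes. Without CNS4Flox replicate 1, 2 or 4 the TRBV14 difference of 0.3686 was 0.3486, 0.3564 or 0.3599. The TRBV20 difference of 0.1117 was 0.09622, 0.1118 or 0.1164. Calls were thus also lost where the difference did not shrink. Leaving out 1 CNS4Flox sample made the groups unequal in size. In a 2-sided test, placing the highest CNS4KO values in the smaller group can then give a larger difference than the observed one. The lost calls therefore do not show that particular CNS4Flox samples carried the difference. How far unequal size led to the lost calls was not tested. The median difference was 0.337 counts per clonotype over the 6 members and 0.201 over all 22 genes.

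TRBV30 showed the largest difference of the 22 genes. A TRBV30 clonotype averaged 2.07, 2.20, 2.89, 1.68 and 1.33 counts in CNS4KO replicates 1 to 5, against 1.18, 1.29, 1.37, 1.32 and 1.30 in CNS4Flox replicates 1 to 5. CNS4KO replicate 5 lay among the CNS4Flox samples and the other 4 CNS4KO samples above all of them. The means were 2.03 ± 0.589 in CNS4KO and 1.30 ± 0.0710 in CNS4Flox (SD, 5 samples each; exact permutation p = 0.0159, adjusted p = 0.0218). The TRBV30 difference of 0.7386 was 0.5245 without CNS4KO replicate 3. TRBV30 also had the highest mean counts per clonotype over all samples, 1.66, with TRBV23 next at 1.64. In CNS4Flox alone TRBV23, at 1.43, was above TRBV30, at 1.30. Both are among the 5 least used V genes, as the plot of use against counts per clonotype shows.

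TRBV14 clonotypes averaged 2.18, 1.62, 1.47, 1.38 and 1.37 counts in CNS4KO replicates 1 to 5, against 1.16, 1.19, 1.29, 1.20 and 1.35 in CNS4Flox replicates 1 to 5. The groups did not overlap, as for 50% of the 22 genes. The difference of 0.369 (exact permutation p = 0.00794, the smallest this design allows, adjusted p = 0.0159) was 0.225 without CNS4KO replicate 1. TRBV23 averaged 1.85 ± 0.240 in CNS4KO and 1.43 ± 0.154 in CNS4Flox (SD, 5 samples each; exact permutation p = 0.0238, adjusted p = 0.0276).

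TRBV17 averaged 1.49, 1.27, 1.57, 2.18 and 1.33 counts in CNS4KO replicates 1 to 5, against 1.22 to 1.31 in CNS4Flox (exact permutation adjusted p = 0.0276). Its difference of 0.306 was 0.153 without CNS4KO replicate 4. TRBV20 averaged 1.22 ± 0.104 in CNS4KO and 1.10 ± 0.0360 in CNS4Flox (SD, 5 samples each; exact permutation adjusted p = 0.0416), a difference of 0.112 that was 0.0710 without the same replicate. TRBV24 averaged 1.19 ± 0.0869 in CNS4KO and 1.11 ± 0.0368 in CNS4Flox (SD, 5 samples each) and did not pass (exact permutation adjusted p = 0.0556). Its difference, 0.0841, was among the 2 smallest of the 22 genes. Without CNS4KO replicate 5 and CNS4Flox replicate 3 together 3 members passed, TRBV14, TRBV23 and TRBV30, and groups of 4 allow no exact p below 0.0286.

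**Figure D2:**
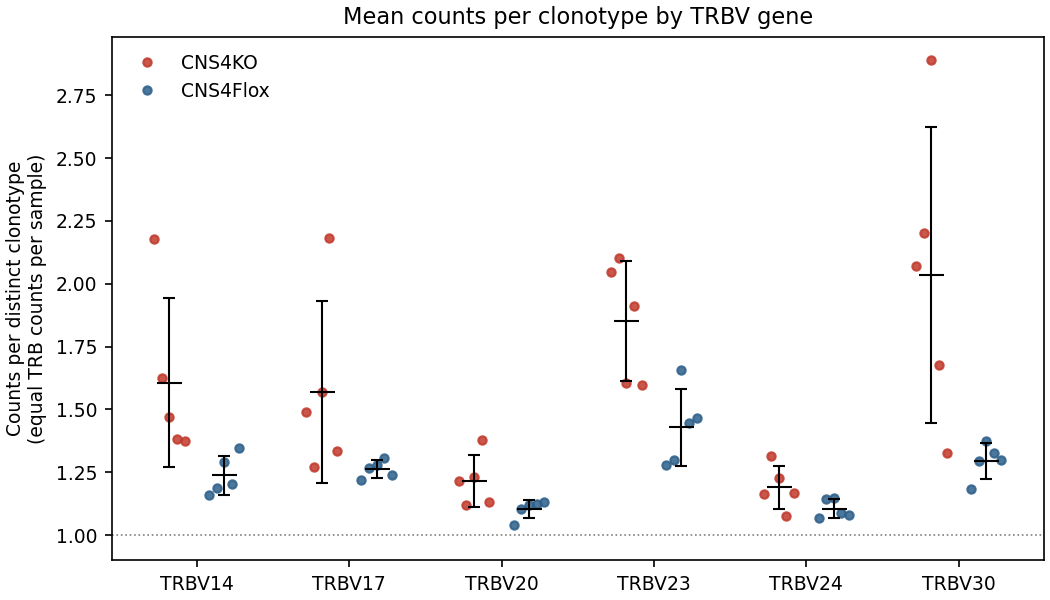
Mean counts per distinct clonotype of each of the 6 TRBV genes after every sample was thinned to 19199 TRB counts. Each point is a sample, with 5 CNS4KO (red) left of 5 CNS4Flox (blue), black marks give mean and SD, and the dotted line marks 1 count, the lowest value possible. TRBV30 shows the highest CNS4KO value, 2.89 in replicate 3, while TRBV20 and TRBV24 stay close to 1 in both groups.

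Most member clonotypes were seen once. This and the clone sizes that follow use all counts without thinning. Depth was thus unequal, at 19199 to 34833 TRB counts per sample. The share with a count of 1 was not set beside that of the other V genes. A count of 1 was carried by 72.3% ± 5.45 of member clonotypes in CNS4KO and 82.4% ± 3.89 in CNS4Flox (SD, 5 samples each). In CNS4KO this share was lowest for TRBV17 at 64.7% and highest for TRBV24 at 85.4%, and in CNS4Flox it ran from 76.6% for TRBV17 to 92.5% for TRBV24. No TRBV24 clonotype reached 10 counts in any of the 10 samples. TRBV23 had the most clonotypes of 10 or more counts, with 8, 10, 2, 10 and 6 in CNS4KO replicates 1 to 5, against 1, 3, 4, 3 and 5 in CNS4Flox replicates 1 to 5. Only CNS4KO replicate 4 held TRBV20 clonotypes that large, 9 of them, and it also held 13 such TRBV17 clonotypes, against 0 to 2 in the other samples.

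The largest clonotype of each gene shows how far a single join weighed on these values. Lower case gives the bases matched to the V and J genes and capitals the bases between those matches, which hold the D gene and the added bases.
TRBV30: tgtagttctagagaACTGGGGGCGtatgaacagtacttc
TRBV14: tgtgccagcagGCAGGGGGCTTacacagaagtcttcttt
TRBV23: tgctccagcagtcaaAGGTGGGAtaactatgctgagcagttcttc
TRBV17: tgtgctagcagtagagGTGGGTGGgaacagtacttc
TRBV20: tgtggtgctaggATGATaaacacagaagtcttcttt
TRBV24: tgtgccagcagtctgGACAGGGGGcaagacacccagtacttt
The TRBV30 clonotype, joined to TRBJ2-7, had 202 counts in CNS4KO replicate 3, or 0.803% of its TRB counts and 39.8% of its TRBV30 counts. The TRBV14 clonotype, joined to TRBJ1-1, had 176 counts in CNS4KO replicate 1, or 0.652% of TRB counts and 28.0% of that gene's counts. Neither was found in another sample. The TRBV23 clonotype, joined to TRBJ2-1, had 44 counts in CNS4KO replicate 5 and 137 in CNS4Flox replicate 3, the pair of libraries that shared the most clonotypes.

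The TRBV17 clonotype (TRBJ2-7, 98 counts) and the TRBV20 clonotype (TRBJ1-1, 23 counts) were both found only in CNS4KO replicate 4. The TRBV24 clonotype (TRBJ2-5) had 6 counts in CNS4Flox replicate 1, or 0.0277% of TRB counts. The 10 largest TRBV30 clonotypes took 31.4%, 50.2%, 58.8%, 30.3% and 13.6% of the gene's counts in CNS4KO replicates 1 to 5, against 11.9%, 18.1%, 18.1%, 15.8% and 18.5% in CNS4Flox replicates 1 to 5. In 4 of 5 CNS4KO samples the 10 largest joins thus held more of TRBV30 than in any CNS4Flox sample. TRBV30 had 114 to 241 clonotypes per CNS4KO sample and 202 to 294 per CNS4Flox sample, and 10 are a larger part of fewer clonotypes. Neither this share nor those that follow were taken at equal numbers of clonotypes. For TRBV14 the same share was 14.1% to 38.6% in CNS4KO and 8.18% to 12.3% in CNS4Flox, and for TRBV17 it was 12.1% to 33.8% in CNS4KO and 7.95% to 10.2% in CNS4Flox. These 2 genes were the members without overlap, beside 40.9% of the 22 genes.

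Among the 100 most abundant TRB clonotypes of each sample, members numbered 21, 19, 20, 22 and 16 in CNS4KO replicates 1 to 5, against 18, 13, 15, 22 and 27 in CNS4Flox replicates 1 to 5. In sum there were 98 in CNS4KO and 95 in CNS4Flox. The clonotype at rank 100 had 9, 8, 8, 14 and 8 counts in CNS4KO replicates 1 to 5. In CNS4Flox replicates 1 to 5 it had 4, 6, 8, 4 and 4, so the lists reached down to unlike sizes. Members made up 10.7% of all TRB clonotypes and 11.6% of all TRB counts of the 10 samples. TRBV23 supplied 85 of the 193, with 37 in CNS4KO and 48 in CNS4Flox, and TRBV30 supplied 40, with 23 in CNS4KO and 17 in CNS4Flox. Of 31 from TRBV17, 11 came from CNS4KO replicate 4 alone. TRBV14 supplied 25, TRBV20, the most used of the 6 genes, 10, and TRBV24 2.

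**Figure D3:**
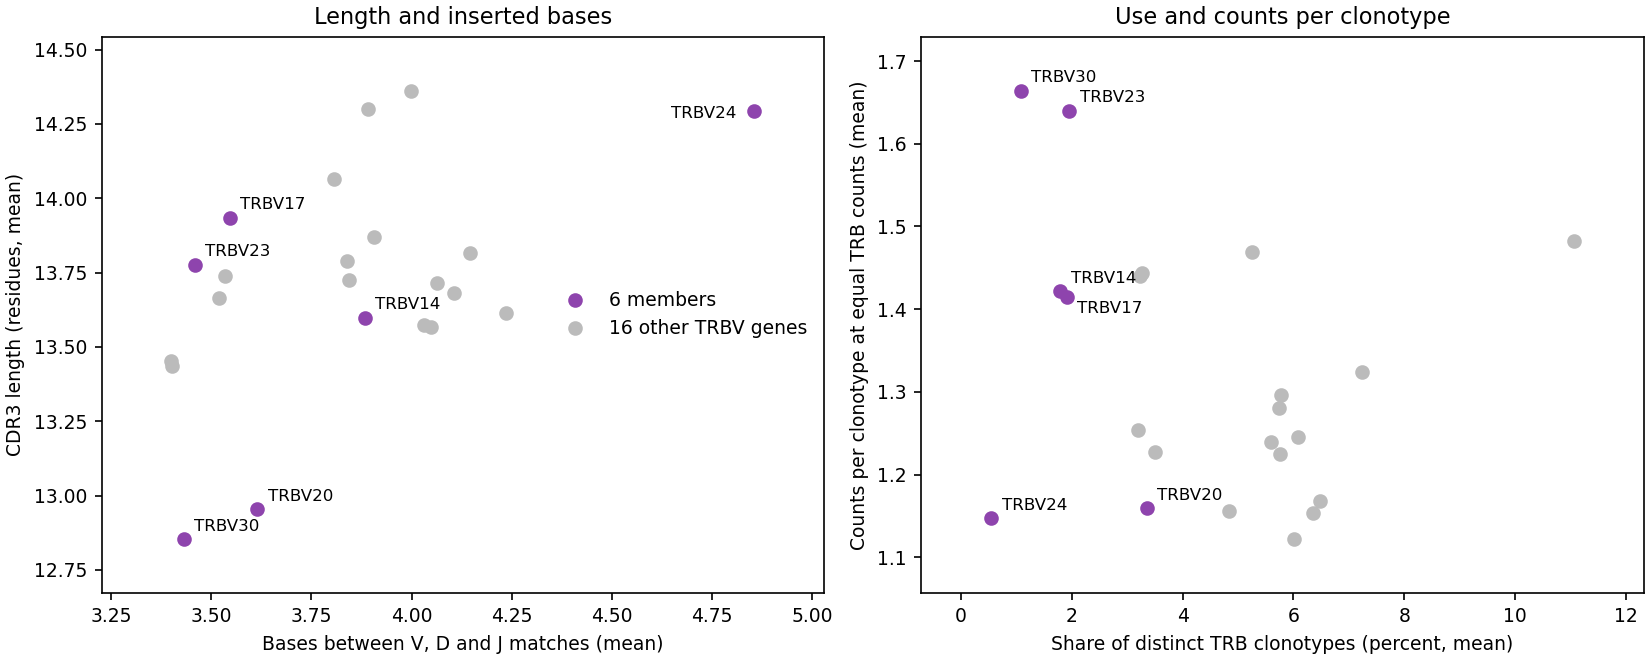
The 22 TRBV genes as means over 10 samples, with the 6 members in purple and the other 16 in grey. Left, mean inserted bases (outside the V, D and J matches) against mean CDR3 length in residues; right, mean share of distinct TRB clonotypes in percent against mean counts per clonotype at equal TRB counts. TRBV20 and TRBV30 are the shortest, TRBV24 has the most inserted bases, and TRBV30 and TRBV23 have the most counts per clonotype.

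CDR3 length set the 6 genes apart from each other far more than the groups. The 2 genes with short V ends made the shortest loops of the 22 genes. Within each sample, the mean length minus that of the TRB clonotypes of all other genes was -0.881 residues for TRBV30 and -0.797 residues for TRBV20, shorter in 10 of 10 samples. TRBV24 was longer by 0.570 residues and TRBV17 by 0.213 residues, each in 10 of 10 samples. For these 4 genes the 2-sided exact sign permutation p was 0.00195, the smallest this design allows, and the adjusted p was 0.00269.

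TRBV14 differed by -0.129 residues, shorter in 9 of 10 samples (exact sign permutation adjusted p = 0.00505), and TRBV23 differed by 0.0525 residues, in 7 of 10 samples, which did not pass (exact sign permutation adjusted p = 0.0905). Without counts of 1 TRBV14 did not pass (-0.124 residues, exact sign permutation adjusted p = 0.0510). TRBV23 passed when clonotypes were weighted by count (0.119 residues, exact sign permutation adjusted p = 0.0475) and without CNS4Flox replicate 5 (0.0653 residues, exact sign permutation adjusted p = 0.0382). Thus 5 of 6 members passed, 2 longer and 3 shorter, beside 81.8% of all 22 genes. The commonest length was 13 residues for TRBV20 and TRBV30 and 14 for the other 4 members. Loops of 12 or fewer residues made up 39.7% of TRBV30 and 34.3% of TRBV20 clonotypes, against 16.3% for the other 16 V genes. Loops of 15 or more made up 46.4% of TRBV24 clonotypes, against 28.0% for the other 16 V genes.

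**Figure D4:**
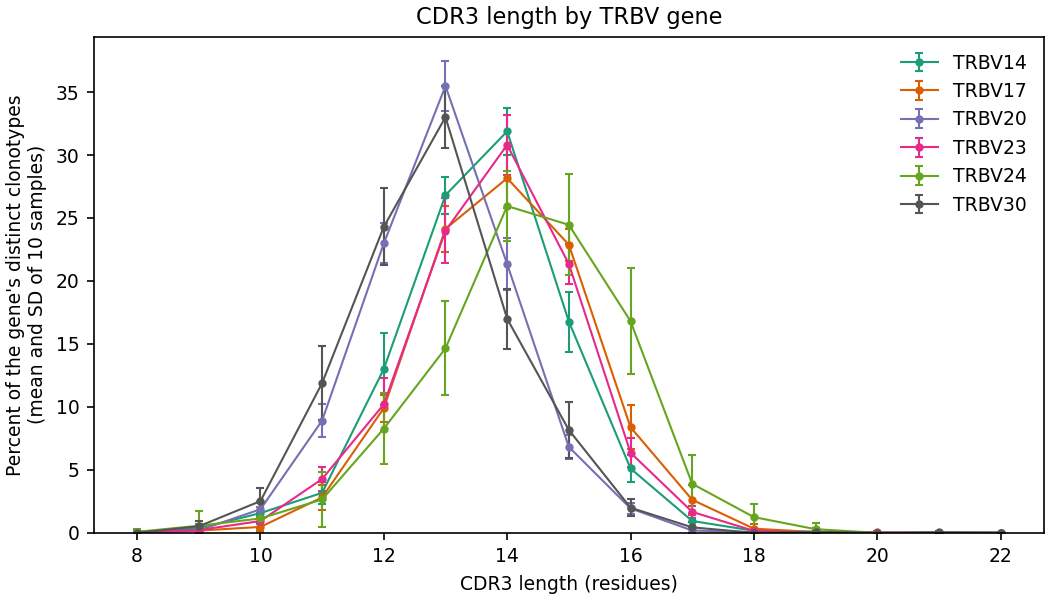
CDR3 length in residues against the percent of each gene's distinct clonotypes, as the mean and SD of 10 samples. TRBV20 and TRBV30 peak at 13 residues and the other 4 genes at 14, with the TRBV24 curve shifted to the right.

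The length differences went with the V bases kept and, for TRBV24, with the bases added. TRBV30 and TRBV20 kept 11.4 and 11.9 V bases in the CDR3 on average, the fewest of the 22 genes, and the other 4 members kept 12.9 to 14.3. TRBV24 had 4.85 inserted bases, those lying outside the V, D and J matches, the most of the 22 genes, against 3.86 in the clonotypes of the 16 genes outside the 6. The other 5 members had 3.43 for TRBV30, 3.46 for TRBV23, 3.55 for TRBV17, 3.62 for TRBV20 and 3.88 for TRBV14. No gap between D and J matches in the tables is under 1 base, for any of the 22 genes. If the deposited D end is 1 base short, the inserted bases of clonotypes with a D match, all but 3.19% to 4.67% of those of each member, are 1 too many.

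No difference in CDR3 make-up between CNS4KO and CNS4Flox clonotypes of the same gene passed the threshold. Mean CDR3 length was 13.6 residues in both groups for TRBV14, 13.9 for TRBV17 and 12.95 ± 0.0511 in CNS4KO against 12.96 ± 0.0625 in CNS4Flox for TRBV20 (SD, 5 samples each). It was 13.8 in both for TRBV23, 14.2 ± 0.323 in CNS4KO against 14.4 ± 0.140 in CNS4Flox for TRBV24, and 12.86 ± 0.162 in CNS4KO against 12.85 ± 0.0901 in CNS4Flox for TRBV30. By exact permutation tests 0 of 6 members passed for length, V bases kept or inserted bases, beside 0% of the 22 genes for each. At an unadjusted p under 0.05 there were 0 members. Of the 22 genes there were 0 for length, 1 for V bases and 1 for inserted bases. The groups overlapped for all 6 members in each of these measures, beside 0% of the 22 genes without overlap for length and V bases and 4.55% for inserted bases.

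TRBV24 inserted bases came nearest to a difference. They averaged 4.81, 4.24, 5.01, 4.75 and 4.45 in CNS4KO replicates 1 to 5, against 4.92, 5.52, 5.09, 4.95 and 4.82 in CNS4Flox replicates 1 to 5. Only CNS4KO replicate 3 reached above the middle of the CNS4Flox values. The difference of -0.409 had an exact permutation p of 0.0556 (adjusted p = 0.567) and turned to 0.739 when counts of 1 were left out. It rests on the 80 to 159 TRB clonotypes of this gene in each CNS4KO sample and 73 to 127 in each CNS4Flox sample.

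J pairing also differed between the genes. The TRBJ2 cluster was joined by 79.2% of TRBV17, 75.3% of TRBV30, 74.6% of TRBV14, 70.03% of TRBV23, 62.3% of TRBV20 and 59.9% of TRBV24 clonotypes (means of 10 samples), against 68.2% for the other 16 V genes. TRBV17, TRBV30 and TRBV14 exceeded the other V genes in 10 of 10 samples, and TRBV20 and TRBV24 in 0 of 10. These are descriptions with no test.

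TRBJ2-7 was the commonest partner of 5 members, with 23.5% of TRBV30, 21.7% of TRBV17, 19.1% of TRBV23, 17.3% of TRBV20 and 15.6% of TRBV24 clonotypes. In TRBV14, TRBJ2-5 came first with 18.6% and TRBJ2-7 second with 17.5%. TRBJ2-5 was favoured by TRBV14 and by TRBV17, at 17.7%, against 12.6% in the other V genes, and was higher in 10 of 10 samples for both. Next came TRBJ2-4 in TRBV14, with 12.1%, and TRBJ2-1 in TRBV17, with 12.8%. TRBV20 was less often joined to TRBJ2-5, at 9.72%, and lay below the other V genes in 10 of 10 samples; its next partners were TRBJ2-4 with 11.1% and TRBJ1-1 with 10.4%.

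TRBV23 had TRBJ2-5 at 14.4% and TRBJ2-4 at 13.2% after TRBJ2-7. It was joined to TRBJ1-3 in 3.80% of clonotypes, against 5.63% in the other V genes, with 0 of 10 samples above them, and to TRBJ1-4 in 7.13%, against 5.85%, with 10 of 10 samples above. TRBV24 had TRBJ2-1 at 11.1% and TRBJ2-4 at 10.4% after TRBJ2-7. It was joined to TRBJ1-6 in 7.12% of clonotypes, against 3.61% in the other V genes, and was higher in 10 of 10 samples. TRBV30 showed the reverse, with 0.906% joined to TRBJ1-6 and none of 10 samples above the other V genes. TRBV30 was also low for TRBJ2-4, at 7.81% against 11.9%, in 10 of 10 samples, while its next partners were TRBJ2-5 with 14.9% and TRBJ2-1 with 11.7%. TRBJ1-6 was recognised by its CDR3 end, because 606 of 624 member entries with that end are named TRBJ2-5 in the tables.

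**Figure D5:**
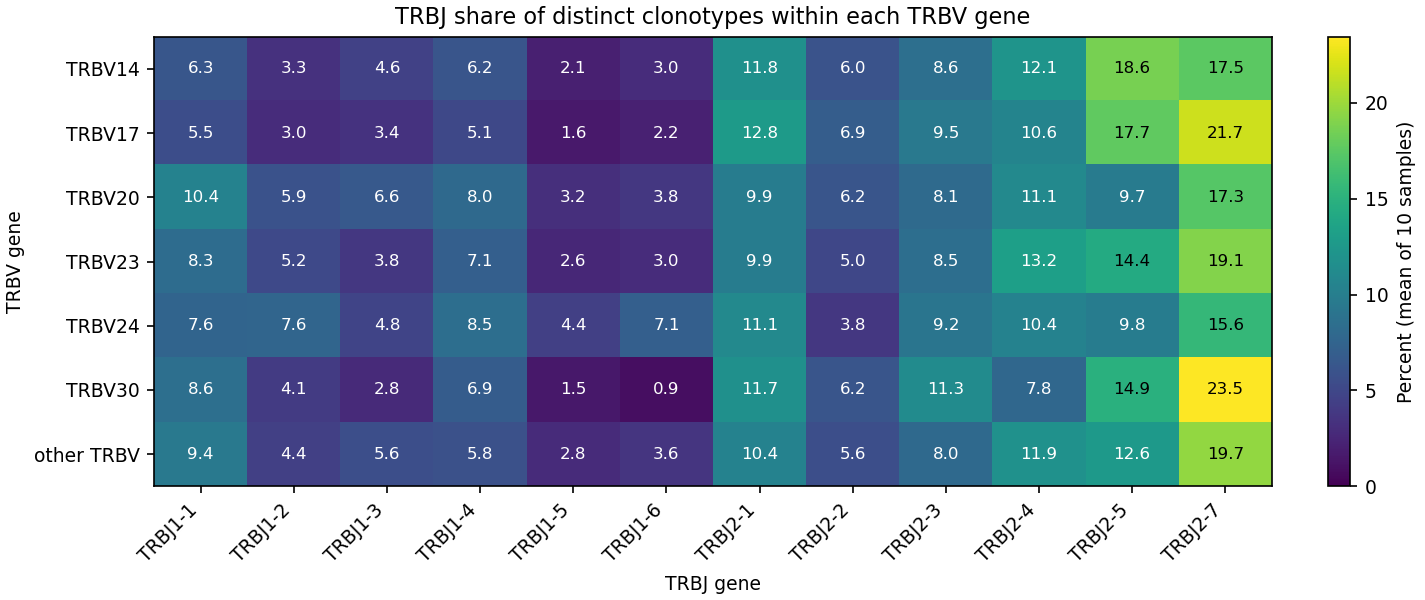
Percent of each gene's distinct clonotypes joined to each of the 12 TRBJ genes (mean of 10 samples), with the 16 other TRBV genes together in the bottom row. TRBV14 and TRBV17 stand out at TRBJ2-5, and TRBV24 is highest and TRBV30 lowest at TRBJ1-6.

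No member's pairing with any J gene passed the threshold between CNS4KO and CNS4Flox. Of 72 possible pairs 57 had enough clonotypes to test, from 12 for TRBV20 down to 4 for TRBV24. In edgeR 0 passed, beside 0.402% of 249 pairs over all V genes, and 2 were at an unadjusted p under 0.05, as were 9 of the 249, with 0 passing in DESeq2. TRBV23 with TRBJ1-3 made up 4.47% ± 1.16 of the gene's clonotypes in CNS4KO and 3.13% ± 0.825 in CNS4Flox (SD, 5 samples each; log2 fold change 0.51, edgeR adjusted p = 0.956). TRBV30 with TRBJ1-2 made up 2.95% ± 1.31 in CNS4KO and 5.27% ± 1.37 in CNS4Flox (SD, 5 samples each; log2 fold change -0.67, edgeR adjusted p = 0.956); both pairs were named after their values were seen.

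Few member joins were shared between samples. Of 20138 distinct member nucleotide clonotypes 488, or 2.42%, occurred in 2 or more samples, against 3.47% for the other 16 V genes. Without CNS4KO replicate 5 and CNS4Flox replicate 3 the shares were 1.47% for members and 2.45% for the other V genes. TRBV20 had the highest share of the 6 genes, 3.21%, and TRBV24 the lowest, 7 of 1027 or 0.682%, with TRBV30 next lowest at 2.05%. Both stayed highest and lowest without that pair of libraries, at 2.36% and 0.252%. The most clonotypes also came from TRBV20 and the fewest from TRBV24, and their part in the sharing was not tested. No member nucleotide clonotype occurred in 5 or more samples, against 21 of 165774 for the other 16 V genes. Of 18759 distinct member amino acid clonotypes 17 did, 10 of them from TRBV20, against 649 of 145411 for the other V genes.

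The most widely found clonotype of each gene had 1 to 7 bases between its V and J matches, against 5 to 11 in the largest clonotypes. Those of TRBV17, TRBV14 and TRBV24 are shown with the same use of capitals, as the most shared and the 2 shortest joins.
TRBV17 shared: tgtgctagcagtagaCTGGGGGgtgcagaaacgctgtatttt
TRBV14 shared: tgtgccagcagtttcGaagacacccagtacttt
TRBV24 shared: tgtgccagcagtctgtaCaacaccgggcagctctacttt
The TRBV17 clonotype, joined to TRBJ2-3, was found in 4 samples, none of them CNS4KO, with 2, 1, 2 and 2 counts in CNS4Flox replicates 1 to 4. The TRBV14 clonotype had 1 base and no D match between V and TRBJ2-5, and was found in 1 CNS4KO and 2 CNS4Flox samples with 1 or 2 counts each. The TRBV24 clonotype, also with 1 base, had 4 counts in CNS4KO replicate 5 and 5 in CNS4Flox replicate 3, the pair of libraries that shared the most clonotypes. It was 1 of 7 TRBV24 clonotypes found in 2 samples, the most for this gene. Without that pair 2 TRBV24 clonotypes were shared. With so few counts, absence from the other samples cannot be told apart from shallow depth.

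Of the 16 other V genes, the share of distinct clonotypes of TRBV4 followed the pooled share of the 6 members most closely over the 10 samples (Pearson's r of 0.790), followed by TRBV3 (Pearson's r of 0.559). These values are a description of 10 samples whose shares add up to the same total.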

How the data were processed

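Total RNA of splenic Treg cells was turned into cDNA with alpha and beta chain primers and sequenced, per the labels' protocols. The authors deposited 1 clonotype table per sample. Per the file headers, each row gives a whole-number count and a fraction, with CDR3 sequence, V, D and J names and match positions; the deposited fraction of the library total was read but not used. The aligner, the clonotype caller and whether counts are reads or molecules are not given in the sources used here. The labels name mm10.

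Rows were taken as TRB by 10 CDR3 ends, and rows with the TRBJ1-6 end were set apart under that name. Positions in the tables are counted from 0, as the values showed. TRBV counts, distinct clonotypes and J shares within V genes were compared with edgeR 4.0.16 (quasi-likelihood, no TMM, TRB total as library size or gene total as offset, at least 10 in at least 5 samples). Adjustment was by Benjamini-Hochberg over all 22 genes or 249 pairs, with a threshold of 0.05. DESeq2 1.42.0 was an alternative. Counts per clonotype (means of 20 draws thinned to 19199 TRB counts), CDR3 length, V bases and inserted bases were compared with exact permutation tests, and length against other genes with the exact sign version. Correlations used 100000 permutations. Other tools were R 4.3.3, scipy 1.17.1, numpy 2.4.6, pandas 2.3.3 and matplotlib 3.10.9 under Python 3.11.15. Procedures were tested on simulated data. In edgeR, simulated 1.5-fold changes were recovered in 86.25% of cases by counts, 100% by distinct clonotypes and 70.5% for V and J pairs. For 1.25-fold changes these were 21.25%, 62.5% and 7.0%, so small changes could be missed. Positions came from RefSeq, which held 22 of 22 TRBV genes.

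Members, lists and alternatives were chosen with earlier results of these data known. Named are all 6 members, the 3 commonest J genes of each and any past the threshold, the largest and the most widely found clonotype of each gene, locus neighbours, and the 2 V genes most like the members by Pearson's r. J pairs at the extremes, the correlations between members and the sharing without a pair of libraries were added after values were seen. Replicates were numbered in accession order within the strain label, and no sample was left out.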

Additional observations from a re-analysis of the deposited data

Results flagged for a closer look

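The mean number of V bases in TRBV24 CDR3s was 13.7 in CNS4KO replicate 2, against 14.0 to 14.1 in the other 4 CNS4KO samples. The gap to the nearest sample was 0.786 of the group's range, above Dixon's critical value for 5 samples. It was the single such case among 88 groups of 5 tested, and chance alone gives about 1 in 20. This sample had 80 TRBV24 clonotypes.

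The 6 TRBV names were also given to entries without a beta J end, which no comparison above uses. They held 45510 counts over the 10 samples, 3066 to 8060 per sample, with means of 5243 ± 1940 in CNS4KO and 3859 ± 569 in CNS4Flox (SD, 5 samples each). They exceed the 30765 counts of the members themselves.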

How the results depend on the processing

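No paired analysis was possible because replicate numbers follow accession order and pair no samples. The count of members passing stayed within 1.5 times under every setting that kept all 10 samples. Without CNS4KO replicate 5 and CNS4Flox replicate 3 together 3 of 6 passed for counts per clonotype, 5 for length against other genes and 0 for the other comparisons. With 1 sample left out in turn, 0 to 6 members passed for counts per clonotype, 0 to 1 for use by counts (TRBV20), 0 to 1 for use by distinct clonotypes (TRBV30) and 5 to 6 for length against other genes. For counts per clonotype, 0 passed without CNS4Flox replicate 1, 2 or 4, 1 without replicate 5 and 3 without replicate 3, with differences still higher in CNS4KO for all 6 genes.

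Signs turned only for differences that did not pass. Leaving out counts of 1 gave a log2 fold change of -0.14 for TRBV23 by counts. It gave CDR3 length differences, CNS4KO minus CNS4Flox, of -0.0253 residues for TRBV17, 0.105 for TRBV20, 0.0553 for TRBV23 and -0.0713 for TRBV30, V base differences of 0.281 for TRBV14, -0.0197 for TRBV20 and 0.0410 for TRBV23, and inserted base differences of 0.257 for TRBV17, -0.0538 for TRBV20 and 0.739 for TRBV24. With all deposited counts as library size, log2 fold changes were -0.0276 for TRBV23 and -0.0596 for TRBV24. Weighting by count gave a length difference of -0.0449 for TRBV17 and inserted base differences of -0.00985 for TRBV14, 0.0325 for TRBV17 and -0.0367 for TRBV23. Requiring the usual CDR3 start gave -0.0013 residues and -0.0424 V bases for TRBV30 and 0.00537 inserted bases for TRBV17. Without the pair of libraries the TRBV20 length difference was 0.0112. The cause of these turns was not tested.

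With 1 sample left out, log2 fold changes by counts ran from -0.350 to 0.0718 for TRBV17, -0.000479 to 0.0959 for TRBV23 and -0.117 to 0.234 for TRBV24, and by distinct clonotypes from -0.0206 to 0.369 for TRBV24. Length differences ran from -0.0268 to 0.0318 for TRBV14, -0.0147 to 0.0454 for TRBV17, -0.0352 to 0.0108 for TRBV20, -0.0784 to 0.000252 for TRBV23 and -0.0400 to 0.0582 for TRBV30. V base differences ran from -0.0800 to 0.00306 for TRBV23 and -0.0389 to 0.0619 for TRBV30. Inserted base differences ran from -0.0480 to 0.0452 for TRBV14, -0.0572 to 0.0404 for TRBV17 and -0.0977 to 0.0274 for TRBV30. For counts per clonotype, TRBV17 and TRBV20 did not pass without thinning (exact permutation adjusted p = 0.0582 each), and TRBV17 did not pass with deeper thinning (exact permutation adjusted p = 0.0556). TRBV24 passed at deeper thinning, without thinning and with the usual start (exact permutation adjusted p from 0.0388 to 0.0476). Depth limits TRBV24 most, with 80 to 191 counts per sample.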
